A study of Homo sapiens with 9 samples.

Results

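The regions described here are those that 6 deposited peak lists place around MYC, in a window of 1.4 Mb on chromosome 8 from 127900000 to 129300000 (hg19). A region was a member if it overlapped this window, which gave 233 of 335291 listed regions. The control lists gave 5 EZH2 peaks, 114 H3K27ac regions and 0 H3K27me3 regions. The shEZH2 lists gave 0, 113 and 1. MYC lies from 128748315 to 128753680 on the plus strand. The window was read as 4 segments: the promoter (regions overlapping 2 kb on either side of the MYC start), the rest of the MYC gene, the desert of 848 kb before it, and the 546 kb after it, which hold PVT1. In RefSeq's table for GRCh38.p14, the long non-coding RNA genes CASC11 and PVT1 are the neighbours of MYC, and POU5F1B is the nearest protein-coding gene before it. PVT1 itself has no hg19 coordinates in the sources used here, so the segment after MYC is described as a whole.

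MYC encodes a transcription factor that drives growth and division and is raised in many cancers. Its control elements are spread over the gene desert that precedes it and over PVT1, and different tissues use different elements there. PVT1 produces a long non-coding RNA, hosts several microRNAs and is often gained together with MYC in tumours. H3K27ac, acetylation of lysine 27 of histone H3, marks active promoters and enhancers. H3K27me3, trimethylation of the same residue, marks chromatin silenced by Polycomb and is placed by EZH2, the catalytic subunit of Polycomb repressive complex 2.

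The cells were LNCaP, an established human prostate cancer line grown in RPMI with 10% FBS. Control cells carried the plko.1 lentiviral knockdown vector and shEZH2 cells a lentivirus against EZH2, and both were fixed 2 to 3 days after infection. EZH2 and both histone marks were mapped by chromatin immunoprecipitation and sequencing (ChIP-seq), and the title of the series asks about roles of EZH2 as an activator apart from Polycomb and methylation. Each of the 6 groups was a single library. Variation between replicate cultures is therefore unknown, and no test between groups was made. The libraries held 13331155 to 33289172 tags. Signal is given in normalised tags: the authors rescaled every library to a total of 10000000 tags. Intervals are 95% exact intervals for counting error only, and reads without molecular identifiers are not independent molecules.

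The window was rich in H3K27ac and almost empty of H3K27me3. It held a few EZH2 peaks of low tag number in control cells that were not listed after knockdown. The genome was cut into 2062 tiles of 1.4 Mb with at least 1 listed region. The median tile held 20 H3K27ac regions in control, and 20 tiles (0.970%) held more than the 114 of the MYC window. In shEZH2, 4 tiles (0.194%) held more than its 113. By summed tags, 5.14% of tiles exceeded its 7665 normalised H3K27ac tags. The density of H3K27ac regions differed within the window, at 5.30 per 100 kb in the desert and 12.3 per 100 kb after MYC.

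**Figure D1:**
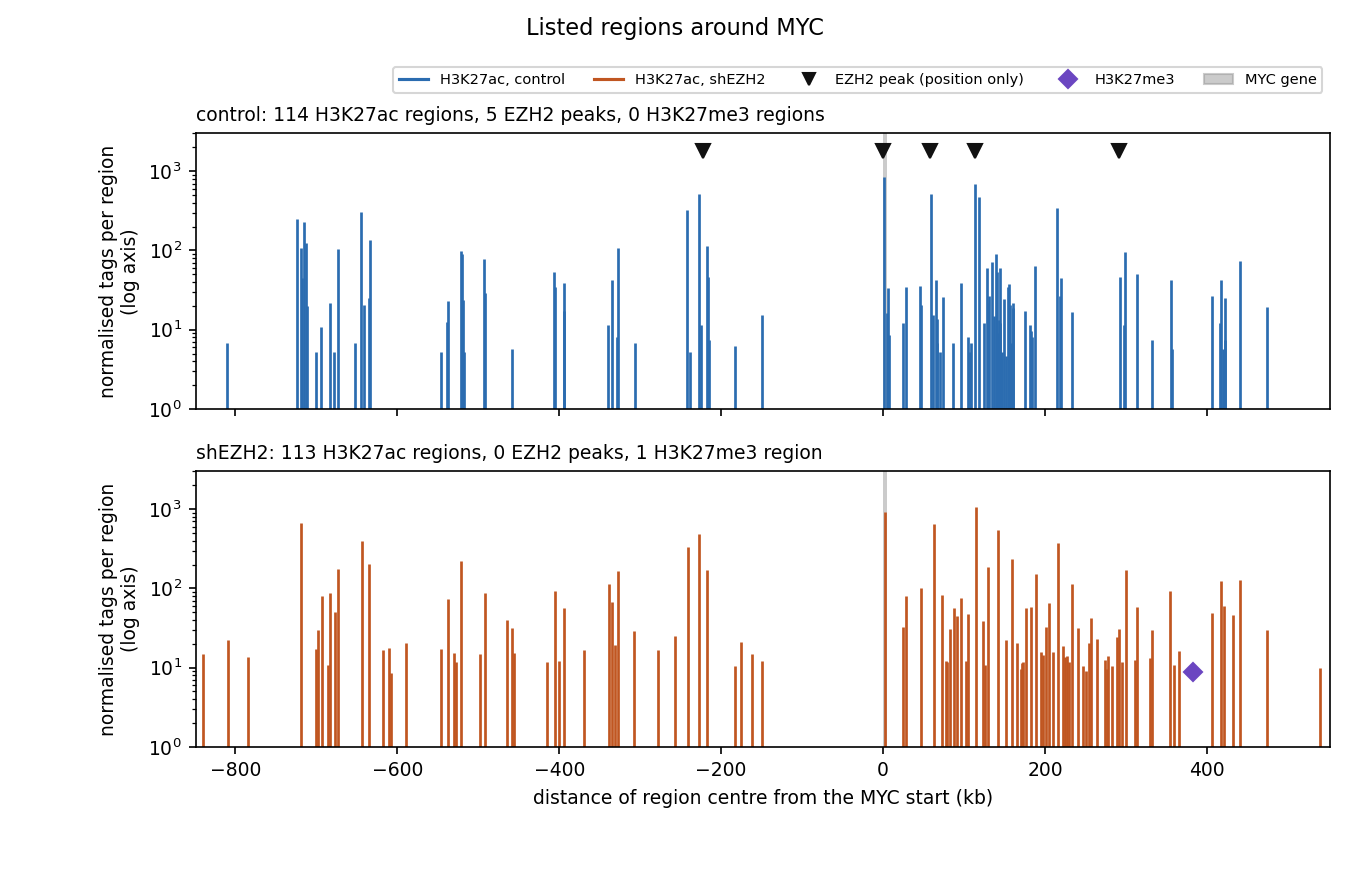
Each vertical line is an H3K27ac region of the control (upper panel) or shEZH2 list (lower panel), placed by the distance of its centre from the MYC start in kb and drawn to its normalised tags on a log axis. Triangles mark the positions of EZH2 peaks, the diamond the single H3K27me3 region with its tags, and the grey band MYC. Both panels show H3K27ac on both sides of MYC and an empty stretch just before it, and only the control panel has EZH2 peaks, 5 in number.

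Polycomb's own mark was not listed anywhere in the window in control cells. The control list held 0 H3K27me3 regions there, as in 7.37% of the tiles, while the median tile held 19. Of the 23 tiles with at least as many control H3K27ac regions as the MYC window, 7 held no control H3K27me3 region. The nearest control H3K27me3 regions ended 931 kb before the MYC start and began 632 kb after the MYC end. The shEZH2 list held 1 region in the window, from 129130807 to 129131807, with 8.76 normalised tags (interval 5.56 to 13.2), 23 tags in all. It ranked 98403 by tags in a list of 99251 and lay 383 kb after the MYC start. With 0 control H3K27me3 regions in the window, none of its 114 control H3K27ac regions could touch one, while 2.08% of the whole list did. In shEZH2, none of the 113 H3K27ac regions touched the 1 H3K27me3 region, while 3.95% of the whole list touched H3K27me3. The lists name regions above a calling threshold, so H3K27me3 below it was not detectable here. For H3K27me3 it came to 26.0 normalised tags per kb in control and 9.53 in shEZH2, and is not a strict floor. The shEZH2 region held 8.75 per kb, so whether control cells had H3K27me3 there cannot be told from the lists.

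EZH2 peaks were few, and each rested on a low number of tags. The control list held 5 in the window, while 59.1% of tiles held more, and the shEZH2 list held 0, as in 22.6% of tiles. In the 23 tiles as rich in control H3K27ac regions, the median was 29 control EZH2 peaks, and 5 of these tiles held no more than 5. The control threshold in the file header was 9 tags, 6.75 normalised tags, and the peaks of the window held 6.75 to 10.5. The promoter peak, from 128747835 to 128748017, was the strongest with 10.5 normalised tags (14 tags, interval 5.74 to 17.6). It lay between 298 and 480 bp upstream of the MYC start and stood 8.44-fold above its local background in the authors' calling. Its rank by tags was 10030 of 23060 control peaks, and the other 4 ranked from 16086 to 21084.

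The other 4 control EZH2 peaks lay 222 kb before and 58.4, 114 and 292 kb after the MYC start. The desert peak, from 128526226 to 128526408, held 7.5 normalised tags (3.60 to 13.8) and stood 19.87-fold above its surroundings. The peak from 128806661 to 128806843 held 8.25 (4.12 to 14.8), at 12.56-fold. Those from 128862020 to 128862202 and from 129040159 to 129040341 each held 6.75 (3.09 to 12.8), at 5.96-fold and 6.8-fold. With 9 to 14 tags each, the 5 intervals overlap, and no order among the peaks can be read from them. Beyond the window, the next control EZH2 peaks were 1021 kb before the MYC start and 1003 kb after the MYC end.

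All but the desert peak lay on H3K27ac. In control, 4 of the 5 EZH2 peaks (80%, interval 28.4 to 99.5) overlapped an H3K27ac region, against 34.4% of all control EZH2 peaks. With 5 peaks, the interval of this share includes the genome's value. None could overlap H3K27me3, as the window held 0 control H3K27me3 regions, while 44.2% of all control EZH2 peaks did. The desert peak lay in a gap of the strongest H3K27ac cluster of the desert, 2497 bp after the region that ends at 128523729 and 3054 bp before the next. It was also outside H3K27ac in shEZH2, 1771 bp and 1715 bp from its neighbours.

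The regions that held EZH2 included the 3 of the window with most H3K27ac. The promoter region held 848.1 normalised tags, the region from 128857807 to 128864757 held 684.7, and the region from 128806178 to 128809756 held 520.7. The fourth, from 129039843 to 129040829, held 46.5 and ranked 30 in the window. The 110 regions without EZH2 ran from 4.59 to 511 normalised tags with a median of 20.6. In all, 4 of 114 control H3K27ac regions (3.51%, 0.964 to 8.74) held an EZH2 peak, against 12.3% of the whole list. Among regions in the highest 10% of the whole list by tags, the window had 10, and 3 of them (30%, 6.67 to 65.2) held EZH2, against 49.2% of all such regions. The first interval lies below the share of the whole list and the second includes it. Regions of 1 locus are not independent of each other, which the intervals do not cover.

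**Figure D2:**
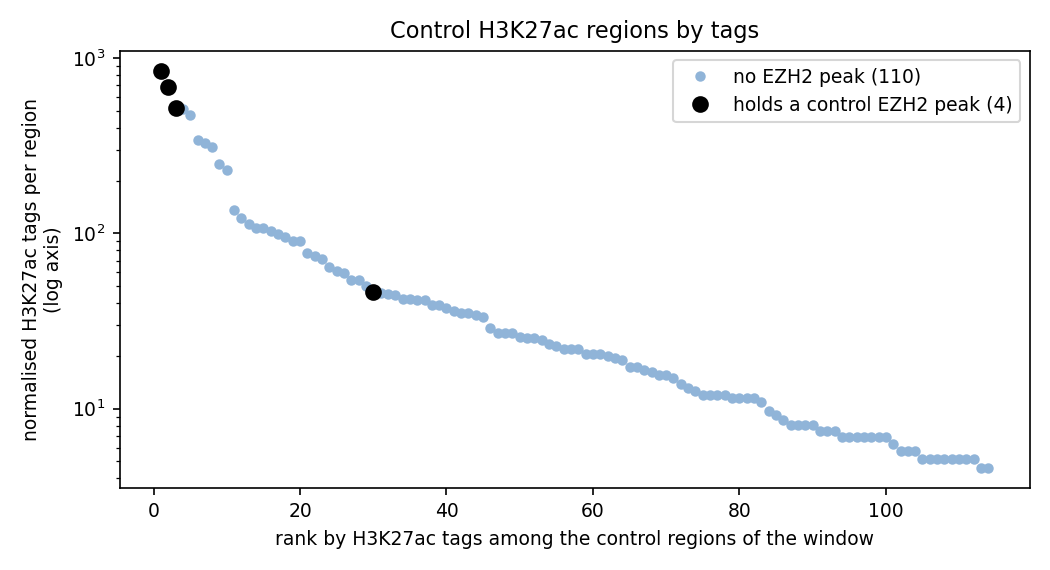
Each point is 1 of the 114 control H3K27ac regions of the window, ordered by rank on the x axis, with its normalised H3K27ac tags on a log axis. Black points hold a control EZH2 peak: ranks 1 to 3, with 520.7 to 848.1 tags, and rank 30, with 46.5.

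None of the 5 control EZH2 peaks was listed in shEZH2 (0 of 5, interval 0 to 52.2%), while 23.1% of all control peaks were. Among the 13031 control peaks with at most 10.5 normalised tags, the most that any of these 5 held, 7.55% were listed again. The nearest shEZH2 EZH2 peaks were 2306 kb before the MYC start and 2275 kb after the MYC end. The shEZH2 threshold was 10 tags, 6.89 normalised tags, in a window of 151 bp in place of 183 bp. At unchanged tags 2 of the 5 peaks would have fallen under that threshold, and at unchanged density 4 would have, with the promoter peak alone above it at 8.66. The counting interval of the promoter peak (5.74 to 17.6) includes the threshold too. The lists therefore measure no loss of EZH2 at any of the 5 peaks, and a signal under the shEZH2 threshold was not detectable here. The title of the control EZH2 library also bears the mark CST, and that of the shEZH2 library bears none. Whether the same antibody was used in both cannot be told from the titles.

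At the promoter, H3K27ac was strong in both groups. In control, 1 region from 128746097 to 128752147 covered the promoter and most of the gene with 848.1 normalised tags (805 to 893). It ranked 360 of 58134 by tags. A second region within MYC, from 128752370 to 128752863, held 16.1 (10.7 to 23.2), and 2 more followed the gene with 33.3 and 8.60. In shEZH2, a single region from 128745342 to 128756171 spanned all of these and held 916.8 normalised tags (877 to 958), ranking 517 of 59233. The EZH2 peak of control cells lay inside both the control and the shEZH2 region.

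**Figure D3:**
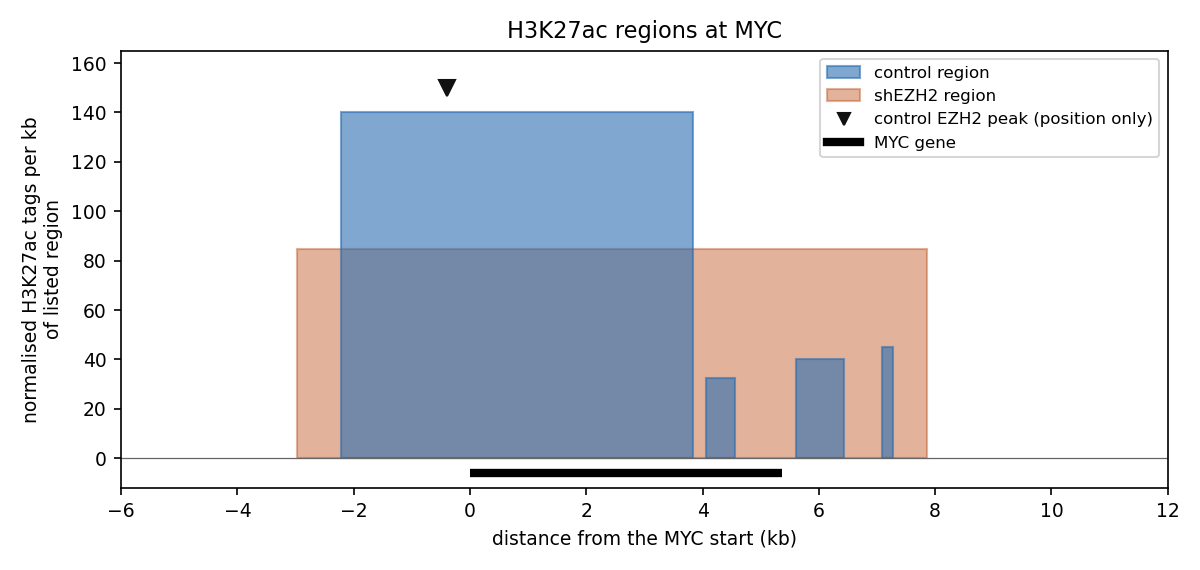
Rectangles are H3K27ac regions at MYC, drawn from start to end in kb from the MYC start (x axis) with their mean normalised tags per kb of listed region as height (y axis). The 4 blue control regions lie within the 1 orange shEZH2 region. The triangle marks the control EZH2 peak upstream of the start and the black bar the gene.

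The H3K27ac calls were made with different settings in the 2 groups, and both sums of tags and tags per kb are given for that reason. The threshold in the file headers came to 34.4 normalised tags per kb for control and 9.47 for shEZH2, a ratio of 3.63. It is not a strict floor of the lists: the lowest H3K27ac regions of the window held 4.59 normalised tags in control and 8.57 in shEZH2, against thresholds of 5.16 and 9.47 per calling window. Regions were compared as sites, each made of control and shEZH2 regions that overlap. The promoter site held 906.1 normalised tags in control, over 7561 bp in 4 regions, and 916.8 in shEZH2, over 10830 bp. The log2 ratio of shEZH2 over control was 0.02 (-0.08 to 0.11), and per kb it was -0.50. If the stretches of the site that the control list leaves out are given the control calling density, control would hold 1019 and the log2 ratio would be -0.15. This filled value is approximate, since the caller also keeps windows apart. It sets control near the most that its unlisted stretches could hold without being called, and so leans towards lower ratios. By listed tags, the interval of the promoter site included equal values in both groups.

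Listed tags were also close to equal at other strong sites of the genome. Over the 3944 shared sites with at least 300 control tags the median log2 ratio was 0.08, with quartiles of -0.07 and 0.24, and the filled median was -0.17. Of these sites, 38.2% had a lower ratio than the MYC promoter site. The window held 9 such sites, 1 at the promoter, 4 in the desert and 4 after MYC, with a median log2 ratio of 0.01 and a filled median of -0.34. Fewer tags in shEZH2 over a longer listed length were found at 4 of the 9, against 35.4% of the strong sites of the genome.

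In the desert, the strongest site by single region lay 227 kb before MYC. Its control region from 128518841 to 128523109 held 511 normalised tags (478 to 546). The whole site, from 128517410 to 128524455, held 522.5 normalised tags in control and 487.5 in shEZH2, a log2 ratio of -0.10 (-0.23 to 0.03). This site flanks the desert EZH2 peak on one side, and the site from 128528123 to 128533461 flanks it on the other. The latter held 167 and 168.2 normalised tags, a ratio of 0.01 (-0.21 to 0.24). The intervals of both flanking sites include equal listed tags. Farther from the peak, the strong site from 128504361 to 128510284 held 332 and 333.3, a ratio of 0.01 (-0.15 to 0.16).

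The farthest strong block of the desert was the one that fell most by listed tags among the 9 strong sites. The site from 128021925 to 128037654, 719 kb before the MYC start, held 774.1 normalised tags in 6 control regions and 673.7 in 1 shEZH2 region. The log2 ratio was -0.20 (-0.31 to -0.09), lower in shEZH2 although the listed length rose from 11989 to 15730 bp. Among strong sites of the genome, 13.0% had a lower ratio. The site from 128100087 to 128109249 held 329.7 and 392.3 normalised tags, a log2 ratio of 0.25 (0.10 to 0.41), over 6005 and 9163 bp. That ratio turned to -0.10 when scaled to listed tags, -0.16 when filled and -0.36 per kb. The other regions of the control desert with most tags were those from 128504729 to 128507923 with 326.9, from 128100969 to 128106541 with 309.1, from 128022820 to 128026911 with 247.7, and from 128031256 to 128034453 with 231.1. In shEZH2, after the 4 strong sites, the region from 128224423 to 128230471 came next with 223.7. At that site control held 218, a log2 ratio of 0.04 (-0.16 to 0.23).

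The stretch just before MYC held no H3K27ac region in either list. It ran for 147 kb in control, from 128598746 to 128746096, and for 146 kb in shEZH2, from 128599036 to 128745341, and was the longest such gap of the window in each. The next longest gaps were 87.6 kb in control and 64.9 kb in shEZH2, at different places.

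After MYC, where PVT1 lies, control H3K27ac regions were more closely spaced than in the desert, at 12.3 against 5.30 per 100 kb. Their tags per kb of listed region were alike, at 67.4 after MYC and 67.8 in the desert. The region with most tags in control, from 128857807 to 128864757, held 684.7 normalised tags (646 to 725), and its neighbour from 128865031 to 128868227 held 471.4. Together with 2 small regions they formed 1 site with shEZH2, from 128854780 to 128870539, 114 kb after the MYC start. That site held 1168 normalised tags in control and 1066 in shEZH2, more than the promoter site in both. The log2 ratio was -0.13 (-0.22 to -0.05), over 10512 and 15760 bp. It contained the control EZH2 peak from 128862020. When regions up to 1 kb apart were joined, this site merged with its neighbours and the ratio became 0.27.

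The site from 128806025 to 128816546, which contained the EZH2 peak from 128806661, held 599 normalised tags in control and 657.5 in shEZH2. The log2 ratio was 0.13 (0.02 to 0.25), with a listed length of 5427 and 10522 bp. Its main control region, from 128806178 to 128809756, held 145 normalised tags per kb, against 140 at the MYC promoter and 147 in the densest region of the window, which starts at 128865031.

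The site from 128881397 to 128898897 had the highest ratio of the 9 strong sites. It held 358 normalised tags in 11 control regions and 537.5 in 1 shEZH2 region, a log2 ratio of 0.58 (0.44 to 0.73). The listed length was 7054 bp in control and 17501 bp in shEZH2, and 97.7% of strong sites of the genome had a lower ratio. With the unlisted stretches filled at the control calling density the log2 ratio was -0.42, and per kb it was -0.73. Farther on, the site from 128959458 to 128969411 held 412.4 and 370.2, a log2 ratio of -0.16 (-0.30 to -0.01) over 6339 and 9954 bp. The control regions with most tags beyond these were from 128960783 to 128965628 with 340.1 and from 129045841 to 129048090 with 95.2. In shEZH2, the region from 128901558 to 128912447 held 234.9.

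The weakest of the EZH2-holding sites was the one whose H3K27ac differed most. The site from 129039347 to 129041222 held 46.5 normalised tags in control and 31.1 in shEZH2, a log2 ratio of -0.58 (-1.06 to -0.10) over 987 and 1876 bp. Of all shared sites with under 50 control tags, 6.12% had fewer tags in shEZH2 over a longer listed length, and in the window 2 of 31 did. Among the 1696 shared sites of the genome with 40 to 50 control tags, the median log2 ratio was 0.56, and 14.6% had a lower value in shEZH2. When regions up to 1 kb apart were joined, the ratio of this site became 0.26. At the 4 EZH2-holding sites the log2 ratios were thus 0.02, 0.13, -0.13 and -0.58 by listed tags. The same 4 ratios were all negative when scaled to listed tags (-0.34, -0.22, -0.49 and -0.93), when filled (-0.15, -0.24, -0.34 and -1.31) and per kb (-0.50, -0.82, -0.72 and -1.51). All ratios of the 9 strong sites, with EZH2 or without, were negative as well when filled. So were those of 3068 of the 3944 strong sites of the genome. Among the 14 sites named for strength, extreme ratio or EZH2, all 14 were negative per kb and 10 when scaled to listed tags. Over the genome, the per kb median was -0.68 at strong sites with EZH2 and -0.76 at those without. A negative sign on these measures was thus not particular to sites that hold EZH2. By listed tags over the genome, the 2178 strong sites with EZH2 had a median of 0.13, and the 1766 strong sites without it 0.03.

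**Figure D4:**
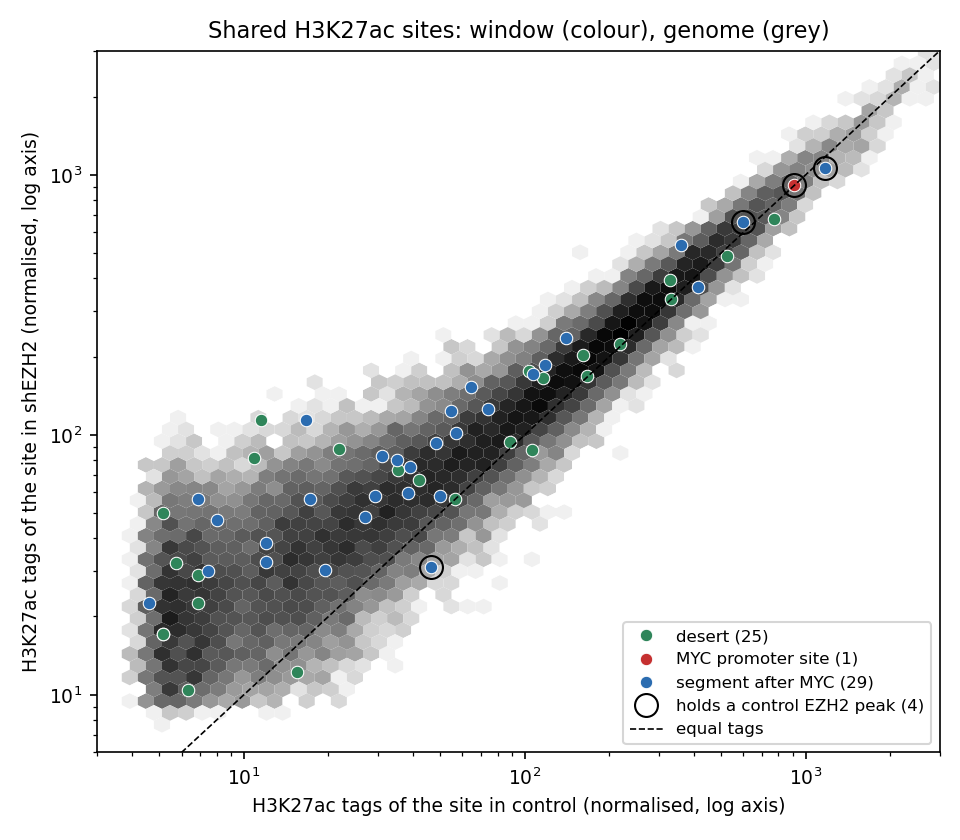
Each coloured point is 1 of the 55 shared H3K27ac sites of the window, with its normalised tags in control (x axis) and shEZH2 (y axis), both on log axes. Grey hexagons count all shared sites of the genome, darker for more. Sites that hold a control EZH2 peak are ringed. The points follow the grey cloud, close to the dashed line of equal tags among strong sites and above it among weak ones.

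Nearly all control H3K27ac regions overlapped a shEZH2 region, in the window as in the genome. A shEZH2 region lay over 113 of the 114 control regions (99.1%, 95.2 to 99.98), as over 97% of the whole list. The exception, from 128095709 to 128095916, held 6.88 normalised tags. The shEZH2 threshold was lower, at 9.47 normalised tags per kb against 34.4, and its regions covered 149 Mb of the genome against 47.2 Mb in control. High overlap in this direction therefore does not measure how much H3K27ac was kept. In the other direction, 55 of the 113 shEZH2 regions (48.7%, 39.2 to 58.3) overlapped a control region, against 59% of the whole list. The 58 others held 8.57 to 64.9 normalised tags with a median of 14.9, and 10.3% of all shEZH2 tags in the window. The strongest of them lay after MYC, from 128951147 to 128955491 with 64.9, from 129178709 to 129181478 with 46 and from 128837964 to 128841737 with 45.1. Their mean densities, 14.9, 16.6 and 11.95 normalised tags per kb, were below the control threshold of 34.4, so whether control cells had H3K27ac there cannot be told from the lists.

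Over all 55 shared sites of the window the median log2 ratio was 0.77, and over the 34954 of the genome it was 0.53. Per kb the medians were -1.05 and -0.999. At least 2-fold more listed tags in shEZH2 were found at 22 of the 55 sites (40%, 27.02 to 54.1), against 31.4% of all shared sites. At least 2-fold fewer were found at 0 of 55, against 0.315% of all, and fewer tags over a longer listed length at 7 of 55 (12.7%), against 15.1%. The intervals of the first and of the last share (5.27 to 24.5%) include the genome's values. Among sites with at least 50 control tags, the highest ratios were 1.26 from 128933344 to 128941844 (64.2 and 153.3 tags), 1.18 from 129163492 to 129167045 (54.4 and 123.1) and 0.84 from 128792909 to 128796636 (56.7 and 101.5). The lowest was -0.28 (-0.58 to 0.02) from 128254747 to 128257617, with 106.1 and 87.5, followed by -0.20 at the far desert block and -0.16 at the site from 128959458.

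By segment, listed H3K27ac tags were higher in shEZH2 and density was lower. The desert held 3159 normalised tags in control and 4041 in shEZH2, a log2 ratio of 0.36 (0.31 to 0.40), over 46.6 and 133 kb. The segment after MYC held 3642 and 5445, a ratio of 0.58 (0.54 to 0.62), over 54.0 and 214 kb. The regions at the promoter held 848.1 and 916.8, a ratio of 0.11 (0.01 to 0.21). These promoter sums cover unlike regions, since the shEZH2 region spans 3 control regions that are counted in other segments. The promoter site, which holds all 4 on the control side, gave 0.02 (-0.08 to 0.11). Per kb of listed region the log2 ratios were -1.16, -1.40 and -0.73. With all listed tags of a library as the scale in place of all its tags, every H3K27ac ratio shifted by -0.35. The promoter value then became -0.24, the desert value 0.00099 and the value after MYC 0.23. Under that scaling the promoter sum turned, the desert sum was equal and the sum after MYC stayed higher in shEZH2, while per kb all 3 were lower. The direction thus depended on the measure. Neither a gain nor a loss of H3K27ac over the MYC promoter, the desert or the segment after MYC can be read from these values.

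**Figure D5:**
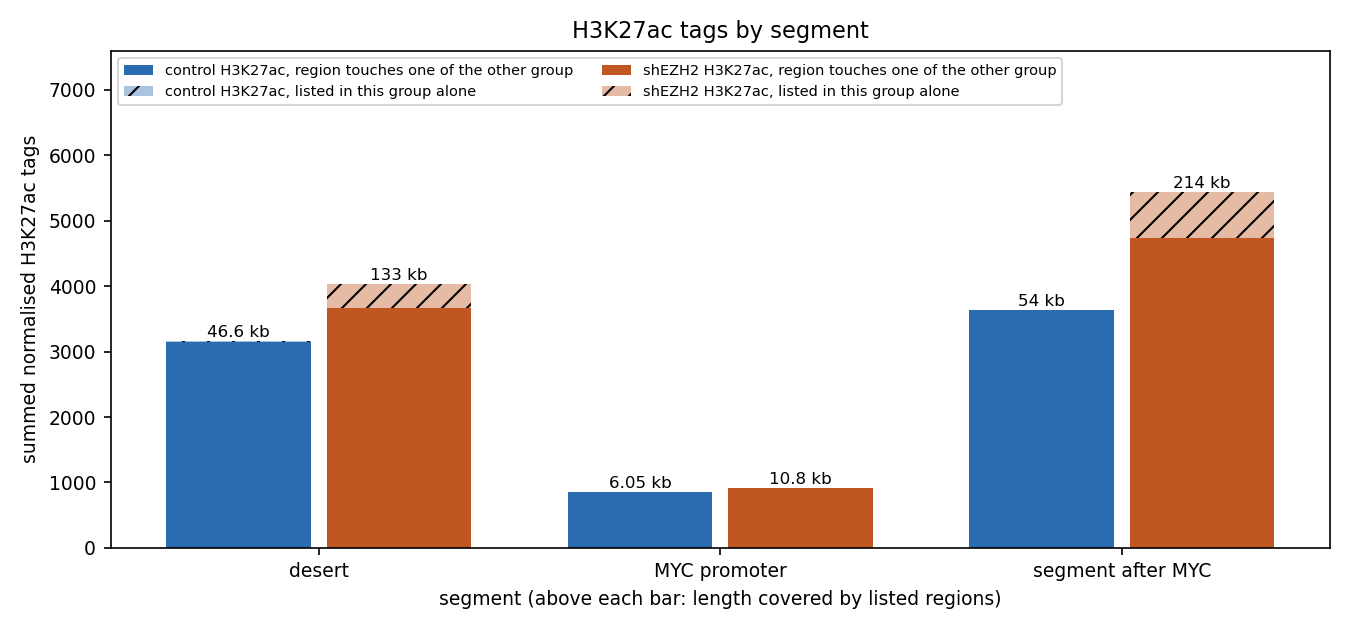
Bars give the summed normalised H3K27ac tags of the desert, the MYC promoter and the segment after MYC in control (blue) and shEZH2 (orange), with the listed length in kb above each bar. Hatched parts are regions that touch none of the other group. The orange bars are higher, and the regions behind them cover 1.79 to 3.95 times the length.

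Joined over gaps of at most 10 kb, the 114 control regions formed 30 clusters. The strongest, from 128834666 to 128909552 after MYC, held 30 regions and 1855 normalised tags over 74.9 kb, and ranked 181 of 26548 clusters of the genome. The next was the desert cluster from 128504729 to 128533218, with 7 regions, 1021 tags and rank 576. The promoter cluster followed with 906.1 tags and rank 717, the far desert block from 128022820 to 128037212 with 774.1 and rank 947, and the cluster from 128806178 to 128822982 with 630 and rank 1341. Of these 5, the far desert block alone had no control EZH2 peak within its span, and the others had 1 each. In the desert cluster from 128504729 that peak lay in a gap, off H3K27ac. The share of clusters with EZH2 over the genome was not computed, so these counts have no background. In shEZH2 most regions after MYC joined into 1 cluster from 128792909 to 129062747. It held 52 regions and 4727 normalised tags over 269.8 kb and ranked 45 of 33829. The 2 lists differ in calling window and threshold, and their part in the size of this cluster was not tested.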

How the data were processed

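LNCaP libraries were grouped by title: EZH2, H3K27ac and H3K27me3 in control and shEZH2, 1 library each. The remaining 3 samples were not used here. The submitters' processing notes name BWA 0.6.1, HOMER 4.1 and the build hg19. Per the file headers, regions were called in single libraries, with no input as background. EZH2 used fixed windows at a false discovery rate of 0.001 and 4-fold over the surrounding 10 kb. Control histone lists used windows of 150 bp at that rate, and shEZH2 lists windows of 1000 bp at a Poisson probability of 0.001. The deposited signal is tags per region scaled by the authors to 10000000 per library. The deposited score ranked regions in an alternative only, and the deposited fold over local background is quoted for EZH2 peaks. The deposited p-value, focus fraction and clonal ratio were not used.

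Overlap meant at least 1 shared bp. Shares have Clopper-Pearson intervals, tags exact Poisson intervals and tag ratios exact conditional binomial intervals. All signal values of all 6 lists, times the library total, came out as whole tags within rounding to the deposited decimals, and intervals used these tags. Overlap and site code was tested on simulated lists and against bedtools 2.31.1. The scripts ran under Python 3.11.15 with pandas 2.3.3 and numpy 2.4.6; intervals came from scipy 1.17.1 and plots from matplotlib 3.10.9. The window, segments, lists and naming rule were chosen with earlier results of these data known. That rule named all regions at the promoter and MYC, all EZH2 peaks, the 5 regions with most tags per segment and group, the extreme and unshared regions (3 each) and the 5 strongest clusters. The 9 strong sites the filled values and the sums without unshared shEZH2 regions were added after seeing the data.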

Additional observations from a re-analysis of the deposited data

How the results depend on the processing

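No paired analysis was possible because each group held 1 library, and for the same reason no library could be left out. H3K27me3 gave no ratio or share, as control held 0 regions. The window held 5 control EZH2 peaks, and 0 in the upper 50% by score or with lists of equal length. The shares of these peaks on either mark or listed again were the same with 50% of the peak covered or a gap of 1 kb. For H3K27me3 and for listing again no other outcome was possible, since the lists compared held 0 regions in the window. The share of control H3K27ac regions listed again was also the same, but in the upper 50% by score it was 59.0%. That score did not follow tags. The control promoter region, with 848.1 normalised tags, had a score of 9, and the control region from 128875994, with 60.8, had 28. The 59.0% is therefore not a share of the strongest regions. Scaled to tags in listed regions, the log2 ratios were -0.24 at the promoter, 0.00099 in the desert, 0.23 after MYC and 0.42 for the median of shared sites. Per kb they were -0.73, -1.16, -1.40 and -1.05. With a minimum of 50 tags they were 0.42 in the desert, 0.81 after MYC and 0.19 for the median. Without shEZH2 regions that touch no control region, the desert gave 0.22 and the segment after MYC 0.38. The median was 0.0054 at the 9 sites of at least 300 tags, and -0.72 with unlisted stretches filled at the control calling density. Per kb or filled, the ratios of all 14 named sites were negative. Filled ratios were also negative at all 55 shared sites of the window and at 31986 of 34954 in the genome. Filling leans that way, so this sign is no separate support for a loss. Of the 14 named sites, the 2 past 2-fold became, per kb and filled, -1.40 and -1.02 (from 128933344) and -0.63 and -0.20 (from 129163492). Joining regions within 1 kb turned the site from 129039347 to 0.26. No pair of like width could be formed in the window. The cause of these shifts was not tested. Depth limits the EZH2 peaks, with 9 to 14 tags each.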
